A study of Mus musculus with 8 samples.

Results

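The 9 genes described here encode factors of the formative and primed epiblast: the ligand gene Fgf5 and the transcription factor genes Otx2, Pou3f1, Zic2, Zic5, Sox3, Sox4, Grhl2 and Tead2. They form a list set by name, which was chosen with earlier results of these data known. Each gene was read from the probe set with the highest mean signal among those annotated to its symbol alone. All 9 were among the 19937 genes measured. RNA came from the mouse embryonic stem cell line R1, which is male, of the strain cross 129X1 x 129S1, and derived from the inner cell mass of a blastocyst. Cells grown on gelatin with LIF and 15% serum were transfected transiently with 2 µg of pLKO.1 shGFP, a hairpin against a jellyfish gene these cells lack, or of pLKO.1 shMKRN1, a hairpin against Mkrn1, which encodes a ubiquitin ligase that also binds mRNA. Both groups were then kept for 4 days in 2 µg/mL puromycin and lysed on day 6 after transfection. Each group had 4 arrays, numbered 1, 3, 5 and 7 for shGFP and 2, 4, 6 and 8 for shMKRN1. The labels name 1 cell line and 1 hairpin per target, and separate transfections for the arrays are not stated. All p-values therefore rest on the spread between arrays, and this spread may be technical.

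When pluripotent cells leave the naive state of the blastocyst, they lose naive factors such as KLF4 and ESRRB and pass through a formative state in which FGF5, OTX2 and POU3F1 come up, before they respond to the signals of gastrulation as primed epiblast. OTX2 is known to redirect the binding of OCT4 to new enhancers in this step, GRHL2 keeps epithelial genes active, and ZIC2, SOX3 and SOX4 have further roles in the nervous system. Stem cells kept in serum and LIF are known as a mixture that includes cells near the formative state. Which cells expressed these genes here was not tested. In bulk samples a change in the number of cells of a type and a change in RNA per cell cannot be told apart.

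The hairpin that sets the groups apart is given first, since every difference below is between cells with and without it:
shMKRN1: gcgagatgttgcttatgcttt

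The promoter table of RefSeq (GRCm38.p6) held 5 of the 9 genes. The 250 bases before the annotated start are shown, on the strand of the gene, for 4 of them. In these 4, all arrays were higher in shMKRN1 than in shGFP on the probe set chosen by the rule. For Zic5 the groups overlapped on a further probe set, 10422504. Capitals mark matches on either strand to 8 motifs: TEAD (GGAATG), SOX (AACAAT), OTX (GGATTA), the octamer of POU factors (ATGCAAAT), GRHL (AACCGGTT), the GC box (GGGCGG), the TATA box (TATAAA) and the CCAAT box (CCAAT).
Zic5 (chr14:122465659-122465908, strand -): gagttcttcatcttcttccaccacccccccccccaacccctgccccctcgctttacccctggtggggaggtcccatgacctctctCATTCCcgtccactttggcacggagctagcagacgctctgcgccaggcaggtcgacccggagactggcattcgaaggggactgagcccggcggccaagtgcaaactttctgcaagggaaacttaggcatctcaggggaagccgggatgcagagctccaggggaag
Fgf5 (chr5:98253934-98254183, strand +): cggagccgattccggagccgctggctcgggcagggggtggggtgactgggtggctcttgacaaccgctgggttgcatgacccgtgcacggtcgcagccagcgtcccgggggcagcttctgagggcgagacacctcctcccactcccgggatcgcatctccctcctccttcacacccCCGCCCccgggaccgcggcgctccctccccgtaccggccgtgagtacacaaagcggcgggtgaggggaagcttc
Tead2 (chr7:45215542-45215791, strand +): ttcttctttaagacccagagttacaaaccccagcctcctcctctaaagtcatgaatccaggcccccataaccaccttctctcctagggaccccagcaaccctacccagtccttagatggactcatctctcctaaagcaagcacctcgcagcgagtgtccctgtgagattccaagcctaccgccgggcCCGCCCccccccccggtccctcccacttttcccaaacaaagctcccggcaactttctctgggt
Sox4 (chr13:28953700-28953949, strand -): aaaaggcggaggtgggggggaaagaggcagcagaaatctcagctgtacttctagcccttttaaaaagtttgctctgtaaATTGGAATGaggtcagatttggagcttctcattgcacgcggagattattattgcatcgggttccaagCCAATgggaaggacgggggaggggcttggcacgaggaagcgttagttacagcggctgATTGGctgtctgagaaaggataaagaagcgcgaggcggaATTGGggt

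The 4 sequences held few of these motifs. Zic5 and Sox4 each had 1 TEAD match, a motif that 12.6% of all 32851 promoter windows hold, and in Sox4 it overlaps a CCAAT box. Fgf5 and Tead2 each had 1 GC box (32.7% of windows). Sox4 had 4 CCAAT boxes (33.8% of windows hold at least 1). SOX, OTX, octamer, GRHL and TATA letters were in none of the 4 windows; their shares of all windows were 9.42%, 6.25%, 1.6%, 0.116% and 12.4%. GC content was 62.4% for Zic5, 70.8% for Fgf5, 57.2% for Tead2 and 50.8% for Sox4, against a median of 52.4%. These matches describe the letters and show no binding.

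The targeted gene and the marker genes were read before the 9 factors. Mkrn1 had a log2 level of 10.44 in shGFP and 9.84 in shMKRN1, a change of -0.60 (SE 0.0521; limma adjusted p = 0.000767; exact two-sided permutation p = 0.0286, the smallest that 70 assignments of 4 and 4 arrays can give), which left 66.2% of the control level. On the leading principal component, with 37.6% of the variance, array shGFP 7 lay at 23.21 against -3.45 to 6.20 for the other shGFP arrays, and shMKRN1 8 at 7.46 against -15.17 to -6.02 for the other shMKRN1 arrays. Array medians ranged from 7.14 to 7.24. All 12 markers of embryonic stem cells lay above 6.50, the log2 level below which 95% of 1190 olfactory and vomeronasal receptor genes lay, and their mean level was 11.37 to 11.45 in shGFP and 11.38 to 11.44 in shMKRN1. Over 11 measured markers of the primitive streak and early mesoderm that mean was 7.20 to 7.36 in shGFP and 7.51 to 7.82 in shMKRN1, with 4 members higher by limma, 0 lower and 1 below the receptor line in both groups. Over 11 markers of neural ectoderm it was 7.92 to 8.01 and 7.75 to 7.82, with 0 higher, 1 lower and 0 below that line. For primitive endoderm the ranges were 7.66 to 7.96 and 7.65 to 7.87 (0 of 12 past the threshold; 1 with an unadjusted p under 0.05), and for fibroblasts 7.68 to 7.80 and 7.71 to 7.88 (2 of 12 higher, 0 lower, 2 below the line). Of all genes, 3.66% were higher and 0.838% lower past the limma threshold, and 19.5% had an unadjusted p under 0.05. The part that these other cell types have in the results below was not tested.

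Zic5 rose in shMKRN1 on the probe set chosen by the rule, and none of the other 8 factors passed the test. At an adjusted p of 0.05, 1 of 9 was thus higher and 0 lower, where 3.66% of all genes were higher and 0.838% lower (4.49% in all). The 2 groups of arrays were fully apart for 5 of the 9, namely Zic5, Fgf5, Tead2 and Sox4, which were higher, and Grhl2, which was lower. Among all genes 14.1% had groups apart in this way (10.6% higher, 3.51% lower). After quantile normalization the groups were apart for 3 of the 9, Zic5, Sox4 and Grhl2 (15.1% of all genes), and after centring on a common median for 3, Zic5, Sox4 and Tead2 (13.8%). An unadjusted p under 0.05 was reached by 6 of 9 (5 higher, 1 lower), against 19.5% of all genes (13.7% higher, 5.78% lower). Among the 14012 genes above the receptor line the shares were 5.92% past the adjusted threshold, 18.5% with groups apart and 24.0% with an unadjusted p under 0.05. All 9 factors were among the 9968 genes above the median level. In a fit of those 9968 genes alone, 2186 had groups apart and 3185 an unadjusted p under 0.05, so both were more frequent at such levels. Of the 9 genes, 7 had the higher mean in shMKRN1, against 52.8% of all genes, and the median change was 0.15 on the log2 scale for the 9 and 0.01 for all genes. Because the 9 were chosen with earlier results known, these shares are a description and no test of the list. All differences were small, with the largest at 1.34-fold. All 9 lay above the receptor line in both groups, the lowest at 8.53.

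**Figure D1:**
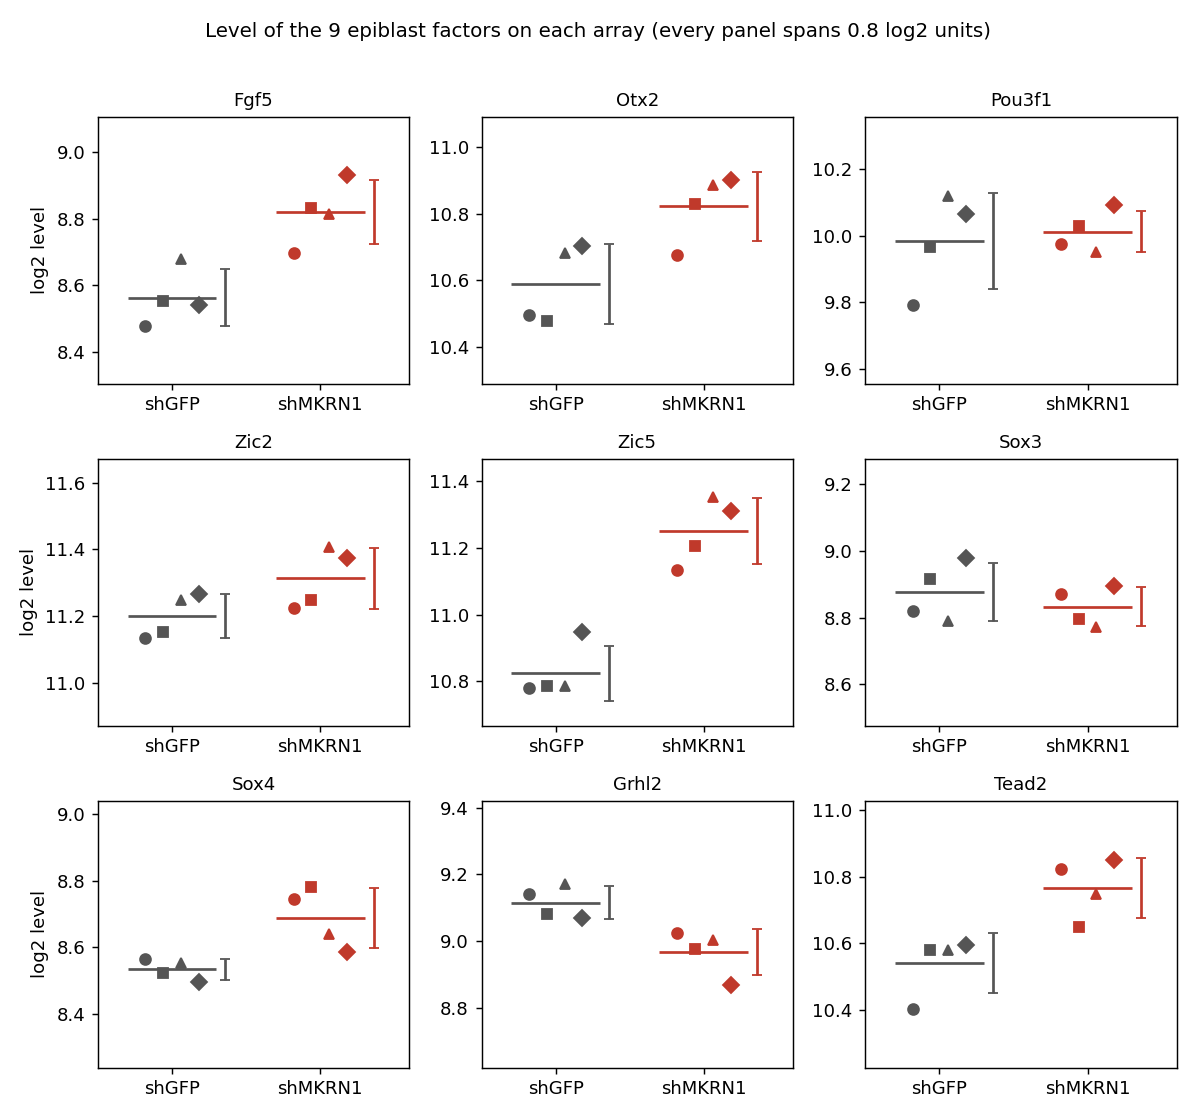
Each panel plots the log2 level of 1 of the 9 genes on the 8 arrays; circles, squares, triangles and diamonds stand for arrays 1, 3, 5 and 7 in shGFP (grey) and 2, 4, 6 and 8 in shMKRN1 (red), lines for the means and bars for 1 SD. Zic5, Fgf5, Tead2 and Sox4 lie higher and Grhl2 lower on every shMKRN1 array, while Otx2, Zic2, Pou3f1 and Sox3 overlap.

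Fgf5 (Entrez gene 14176, chr5:98254184-98277033), the FGF ligand that marks the early postimplantation epiblast, was the factor closest to the threshold among those that missed it. Its log2 levels were 8.48, 8.55, 8.68 and 8.54 on shGFP arrays 1, 3, 5 and 7, and 8.70, 8.83, 8.82 and 8.93 on shMKRN1 arrays 2, 4, 6 and 8. Every shMKRN1 array was higher, with shMKRN1 2 only just above shGFP 5. The change was 0.26 (SE 0.0654; 1.19-fold, 95% confidence interval 108% to 132% of the control; limma adjusted p = 0.057). Without shGFP 5 the change was 0.30 and passed (limma adjusted p = 0.0442). Of the 8 fits that each left out 1 array, only this 1 passed (highest limma adjusted p = 0.145). Fgf5 also passed after the arrays were centred on a common median (0.28, limma adjusted p = 0.0442), where the groups of arrays overlapped. After quantile normalization the groups overlapped too, and the change of 0.23 did not pass (limma adjusted p = 0.0911).

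Otx2 (Entrez gene 18424, chr14:48656781-48667644), the homeobox factor that drives the exit to the formative state, had levels of 10.50, 10.48, 10.68 and 10.70 in shGFP and 10.68, 10.83, 10.89 and 10.90 in shMKRN1. The groups overlapped, since shMKRN1 2 lay just below shGFP 5 and 7, while the other 3 shMKRN1 arrays were above all controls. The change of 0.23 (SE 0.0745; 1.18-fold, interval 105% to 132%) did not pass (limma adjusted p = 0.115). The paralog genes Otx1 and Crx, both best known from the nervous system and the eye, changed by -0.12 (adjusted p = 0.483) and -0.19 (adjusted p = 0.38), with Crx below the receptor line in both groups.

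Pou3f1 (Entrez gene 18991, chr4:124657646-124660655) encodes the POU factor OCT6, a partner of OTX2 in formative cells. Its levels were 9.79, 9.97, 10.12 and 10.06 in shGFP and 9.98, 10.03, 9.95 and 10.09 in shMKRN1. Here the 4 knockdown arrays lay inside the range of the controls, which shGFP 1 widened at its lower end. The change was 0.03 (SE 0.0741; interval 90.9% to 114% of the control; limma adjusted p = 0.892), and without shGFP 1 it was -0.04. The interval thus leaves room for a difference of the size seen for Sox4 and for a fall of about the same size. Of the neural paralogs, Pou3f2 changed by -0.03, Pou3f3 by -0.03 and Pou3f4 by -0.16, and none passed (adjusted p between 0.169 and 0.927).

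The zinc finger genes Zic2 and Zic5 are neighbours on chromosome 14, with 9.73 kb between them. ZIC2 binds enhancers of primed cells and is required for forebrain formation, and ZIC5 is a related factor of the neural tube and neural crest. Zic2 (Entrez gene 22772, chr14:122475384-122480328) had levels of 11.14, 11.15, 11.25 and 11.26 in shGFP and 11.22, 11.25, 11.41 and 11.38 in shMKRN1. Arrays shMKRN1 6 and 8 stood above all controls and shMKRN1 2 and 4 among them. The change was 0.11 (SE 0.0609; interval 98.5% to 119%; limma adjusted p = 0.353).

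Zic5 (Entrez gene 65100, chr14:122459160-122465658) had levels of 10.78, 10.79, 10.79 and 10.95 in shGFP and 11.13, 11.21, 11.35 and 11.31 in shMKRN1 on probe set 10376241. The lowest shMKRN1 array exceeded the highest control, shGFP 7, which itself stood above the other 3. The change was 0.43 (SE 0.0657; 1.34-fold, interval 121% to 149%; limma adjusted p = 0.00753), larger in size than that of 98.5% of all genes. The call held without each array in turn (0.39 to 0.47; adjusted p between 0.00604 and 0.0351).

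A further probe set, 10422504, is annotated to the same gene and gave a different result. Its levels were 8.30, 8.34, 8.23 and 8.47 in shGFP and 8.40, 8.39, 8.55 and 8.51 in shMKRN1. These groups overlapped, with shGFP 7 above shMKRN1 2 and 4. Its change was 0.13 (SE 0.0681; 1.09-fold; adjusted p = 0.413 over all probe sets, where the other probe set had 0.0258). The difference between the probe sets, taken on each array, averaged 2.49 ± 0.0488 (SD, n = 4) in the controls. In the knockdown arrays it averaged 2.79 ± 0.0354 (SD, n = 4), which is 0.30 higher with no overlap (exact two-sided permutation p = 0.0286, the smallest possible). This comparison was not among the planned tests, its p is not adjusted, and it is given as a description. With the mean of both probe sets the change was 0.28 (adjusted p = 0.0419), and with the lower probe set of each gene 0.13 (adjusted p = 0.339), which left 0 of the 9 factors past the threshold. In the fit with the lower probe sets, 695 of all 19937 genes were higher past the threshold and 150 lower. Numbers of probe sets on this array mostly follow the chromosomes: for 94.8% of named probe sets the next is on the same chromosome. All 10 named probe sets nearest to 10376241 in this order belonged to genes of chromosome 11, with G3bp1 and Gm12238 before it and Gria1 after it, while 9 of the 10 nearest to 10422504 belonged to chromosome 14, where Zic5 lies. Gm12238 and Gria1, chosen for their place in that order, changed by -0.02 and -0.08 (adjusted p = 0.914 and 0.621). Where the probes of each set align was not analysed here, so the rise is a result of probe set 10376241 and not of both measurements of Zic5.

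**Figure D2:**
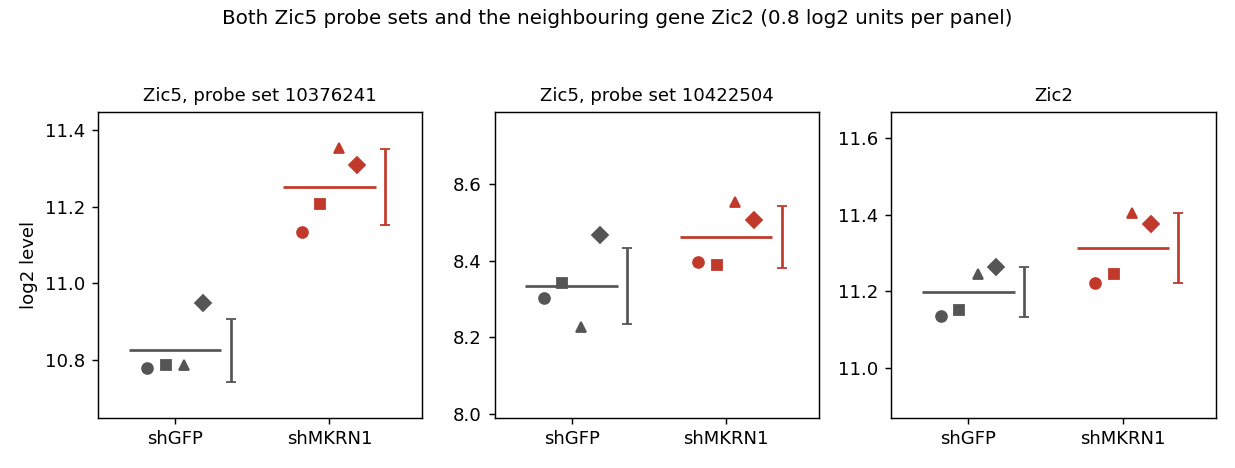
The panels plot log2 levels on the 8 arrays for both probe sets of Zic5 and for Zic2, with the symbols of the plot of the 9 genes, lines for means and bars for 1 SD, and each axis spans 0.8 log2 units. The groups are apart on 10376241 (change 0.43) and overlap on 10422504 (0.13) and for Zic2 (0.11).

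Zic5 and Zic2 were compared directly, as the difference of their levels on each array. It averaged -0.37 ± 0.0618 (SD, n = 4) in the controls and -0.06 ± 0.021 (SD, n = 4) after knockdown. The shift was 0.31 without overlap (exact permutation p = 0.0286, 0.143 adjusted over 5 pairs of paralogs). This p is the smallest possible, and with no other pair at it the adjusted value could not be lower. The adjusted value thus cannot decide whether Zic5 and Zic2 changed unequally. With the lower Zic5 probe set the shift was 0.01. The measured neighbours showed no change past the threshold: Gm5089, 8.01 kb from Zic5, changed by -0.07 (adjusted p = 0.781) and was below the receptor line, and Pcca, 4.04 kb beyond Zic2, changed by 0.13 (adjusted p = 0.305). The paralogs Zic1 and Zic4 lay below the receptor line in both groups, and their changes of -0.15 and -0.05 are not read as expression.

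The 3 genes whose profile was most like that of Zic5 on probe set 10376241 were the phosphofructokinase gene Pfkp, Wdr31 and Pnma5. Likeness was the root-mean-square difference over the 8 arrays after each gene's shGFP mean was subtracted, and it was 0.0334, 0.0475 and 0.0497 for them. Since they were picked for a profile like that of Zic5, their changes of 0.42, 0.42 and 0.47 follow from the choice and are given as a description.

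Neither Sox gene among the 9 passed the threshold. SOX3 is a close relative of SOX2 that can stand in for it in pluripotent cells, and SOX4 belongs to a separate group of Sox factors active in progenitors. Sox3 (Entrez gene 20675, chrX:60891366-60893430) had levels of 8.82, 8.92, 8.79 and 8.98 in shGFP and 8.87, 8.80, 8.77 and 8.89 in shMKRN1. Array shMKRN1 6 lay just below all controls and shGFP 3 and 7 above all knockdown arrays, while the others overlapped. The change was -0.04 (SE 0.0591; interval 88.6% to 106%; limma adjusted p = 0.758). Sox4 (Entrez gene 20677, chr13:28948919-28953699) had levels of 8.56, 8.52, 8.55 and 8.50 in shGFP and 8.74, 8.78, 8.64 and 8.59 in shMKRN1. The control arrays were close together (SD 0.0308) and all knockdown arrays lay above them, shMKRN1 8 by the least. The change was 0.15 (SE 0.0564; 1.11-fold, interval 102% to 121%; limma adjusted p = 0.162). Against Sox2 the change of Sox3 was -0.01 (exact permutation p = 0.857), and against Sox11 that of Sox4 was 0.12 (exact permutation p = 0.2, 0.333 adjusted over 5 pairs). Of the other relatives, Sox1 changed by -0.17, Sox2 by -0.03, Sox11 by 0.03 and Sox12 by 0.08, with adjusted p-values between 0.451 and 0.875.

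Grhl2 (Entrez gene 252973, chr15:37232821-37363569) was the factor with lower values on every knockdown array. Its levels were 9.14, 9.08, 9.17 and 9.07 in shGFP and 9.02, 8.98, 9.002 and 8.87 in shMKRN1. The groups did not overlap, though shMKRN1 2 was close to shGFP 7. The change was -0.15 (SE 0.0536, 90.3% of the control, interval 83.1% to 98.1%, limma adjusted p = 0.16). It passed after quantile normalization (-0.18, limma adjusted p = 0.0414). After centring on a common median it was -0.12 and did not pass (limma adjusted p = 0.321), and the groups overlapped. The paralogs Grhl1 and Grhl3 changed by -0.13 and 0.10 (adjusted p = 0.317 and 0.316). GRHL factors keep epithelial genes open, and 17 such genes were measured. Of these 1 was higher past the threshold (3.66% of all genes) and 0 lower (0.838%), with a median change of 0.04. It was Elf3, an ETS factor of epithelia, which rose 1.43-fold (0.51, SE 0.058; limma adjusted p = 0.00192).

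Tead2 (Entrez gene 21677, chr7:45215792-45233468) encodes a DNA-binding partner of YAP, the coactivator that Hippo signalling keeps out of the nucleus. Its levels were 10.40, 10.58, 10.58 and 10.59 in shGFP and 10.82, 10.65, 10.75 and 10.85 in shMKRN1. All knockdown arrays were higher, shMKRN1 4 by the least, and shGFP 1 lay well below the other controls. The change was 0.23 (SE 0.0652; 1.17-fold, interval 106% to 129%; limma adjusted p = 0.0838). It was 0.18 without shGFP 1, and 0.25 with the arrays centred on a common median, where it passed (limma adjusted p = 0.0405). After quantile normalization it was 0.20 and did not pass (limma adjusted p = 0.133), and the groups overlapped. Tead1 and Tead4 had groups that did not overlap, as had 14.1% of all genes. Their changes of 0.16 and 0.21 did not pass (limma adjusted p = 0.155 and 0.125), and Tead3 lay at 8.31 in both groups. The shift of Tead2 against Tead1 was 0.07 (exact permutation p = 0.429, 0.536 adjusted over 5 pairs). Of 16 other genes of the Hippo pathway and its targets, 0 passed limma, and the median change was 0.03. An unadjusted limma p under 0.05 was reached by 3 (1 higher, 2 lower), against 19.5% of all genes.

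**Figure D3:**
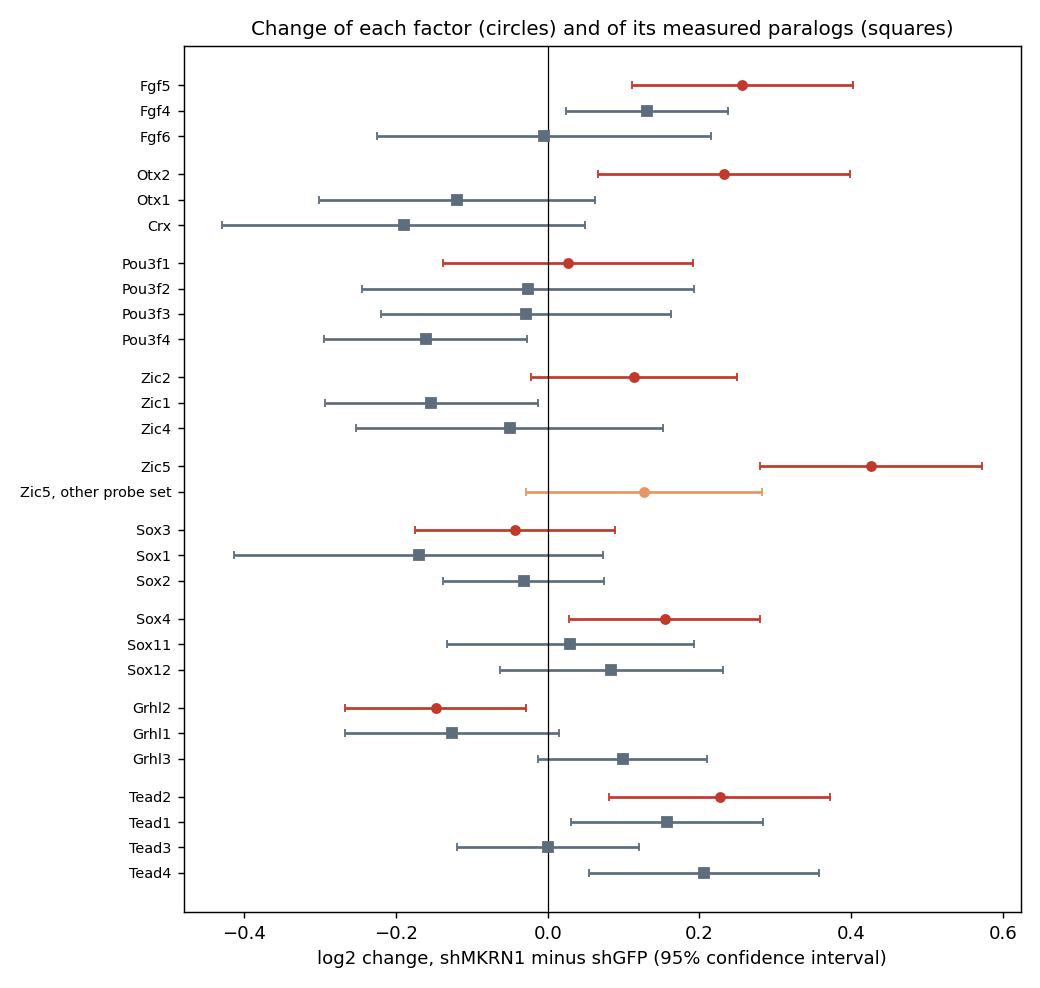
Points give the log2 change (shMKRN1 minus shGFP) of the 9 factors (red circles), of the further Zic5 probe set (orange) and of 18 measured paralogs (grey squares), with 95% confidence intervals from the fit. The intervals of Zic5, Fgf5, Tead2, Otx2 and Sox4 lie above 0 and that of Grhl2 below it, before adjustment over all genes.

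Over all 18 measured paralogs, 0 passed the threshold in limma, 5 had an unadjusted p under 0.05 (3 higher, 2 lower), and the median change was -0.03. Of all genes, 19.5% had an unadjusted p under 0.05. Fgf4, the FGF ligand of the naive state, changed by 0.13 (adjusted p = 0.164), and the shift of Fgf5 against it was 0.13 (exact permutation p = 0.2, 0.333 adjusted over 5 pairs). Fgf6 lay below the receptor line.

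Other genes of the formative and primed epiblast were read beside the 9. Of 27 measured, 4 rose and 0 fell past the threshold, against 3.66% and 0.838% of all genes. The median change was 0.06, against 0.01 for all genes. An unadjusted limma p under 0.05 was reached by 7 higher and 3 lower genes of the 27, against 13.7% and 5.78% of all genes. This list too was chosen with earlier results of these data known. Wnt8a, a WNT ligand of the early streak, rose 1.95-fold (0.96, SE 0.103; limma adjusted p = 0.00154). The carbonic anhydrase gene Car14 rose by 0.51, the de novo methyltransferase gene Dnmt3a by 0.25 and Lefty2, an antagonist of Nodal signalling, by 0.33 (adjusted p = 0.00651, 0.0191 and 0.0262). The count was 2 without shGFP 1, shGFP 3, shMKRN1 2 or shMKRN1 4. Of the 11 primitive streak markers 4 rose, Mixl1 by 3.17-fold, and of the 11 neural ectoderm markers 1 fell, Neurod1 by 0.67 on the log2 scale. Their part in the result was not tested.

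FGF5 acts through FGF receptors and the ERK cascade. Of 19 genes of that pathway 1 rose, Fgfr2, which encodes a receptor (0.36, SE 0.0635; limma adjusted p = 0.0139), and 0 fell. Of all genes, 3.66% rose and 0.838% fell past the threshold. The median change was 0.10 for these 19, and 15 of them had a higher mean in shMKRN1, against 52.8% of all genes. An unadjusted limma p under 0.05 was reached by 7 higher and 1 lower of the 19, against 13.7% and 5.78% of all genes. The count past the threshold in this list was 2 without shGFP 5 and 0 without shMKRN1 6. Among 26 genes of naive and general pluripotency, 4 rose and 0 fell, with a median change of 0.01: Pecam1 (0.55), Dppa3 (0.79), Nanog (0.25) and Klf2 (0.32), at adjusted p-values between 0.0162 and 0.0369. Of these 26, 8 higher and 3 lower genes had an unadjusted limma p under 0.05, against 13.7% and 5.78% of all genes. With the trend, array weights or the median filter, 2, 3 and 2 genes of this list also fell. The count past the threshold was 2 without shGFP 1 or 5, 1 without shGFP 3 or shMKRN1 2 or 4, and 0 without shMKRN1 6.

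**Figure D4:**
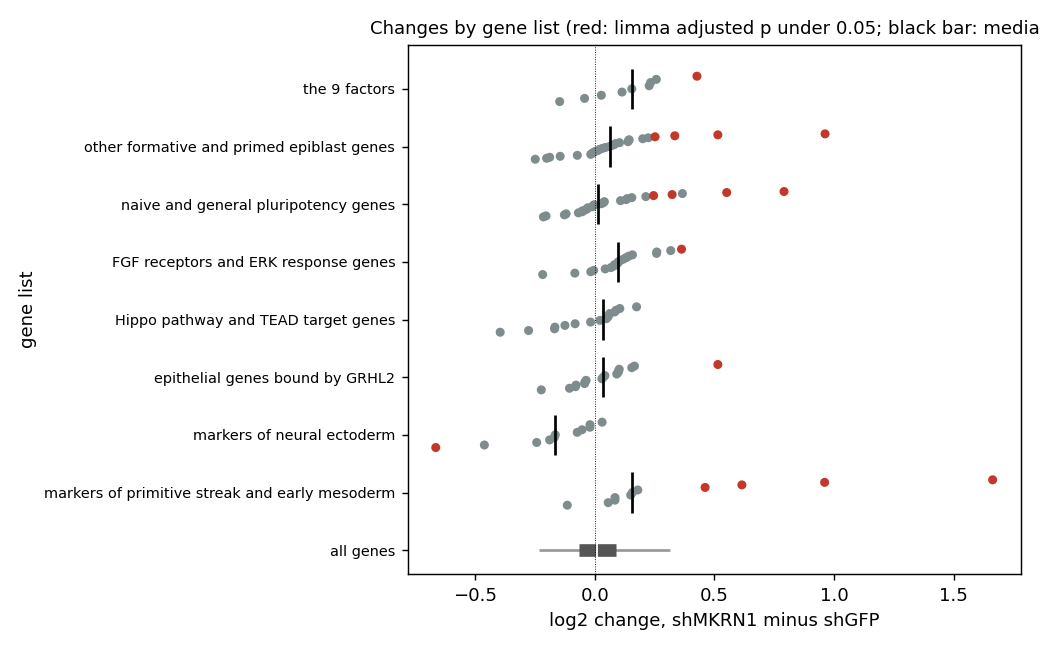
Each point is the log2 change of a gene in a list, red where the limma adjusted p is under 0.05, and black bars are medians; the bottom row gives all genes, with the thick bar for the interquartile range, the thin line for the middle 95% and a white mark at the median. The median is 0.15 for the 9 factors, 0.06 for other formative genes, -0.17 for neural ectoderm markers and 0.16 for primitive streak markers.

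Some arrays were at the end of the range for several factors. Array shGFP 1 was the lowest of all 8 for 5 of the 9 genes (Fgf5, Pou3f1, Zic2, Zic5 and Tead2). Array shMKRN1 8 was the highest for Fgf5, Otx2 and Tead2, and shMKRN1 6 for Zic2 and Zic5. Without shGFP 7 and shMKRN1 8, the arrays that stood apart, the changes were 0.45 for Zic5, 0.24 for Otx2, 0.22 for Tead2, 0.21 for Fgf5, 0.18 for Sox4 and -0.13 for Grhl2, and 1 factor passed, Zic5. In that fit 708 of all 19937 genes were higher past the threshold and 209 lower.

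How many of the 9 passed depended on the fit. With array weights, with an intensity trend in the variance, and with only genes above the median level, 4 factors passed, Zic5, Fgf5, Otx2 and Tead2, all higher; the shares higher past the threshold were 9.7% and 6.16% of all genes in the first and second of these fits and 12.9% of the 9968 genes left in the third. With centring on a common median 3 passed, Zic5, Fgf5 and Tead2 (4.39% of all genes higher). After quantile normalization Zic5 was higher and Grhl2 lower (4.04% of all genes higher, 1.45% lower). Pou3f1, Zic2, Sox3 and Sox4 passed in none of the 19 fits, those that leave out arrays included.

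**Figure D5:**
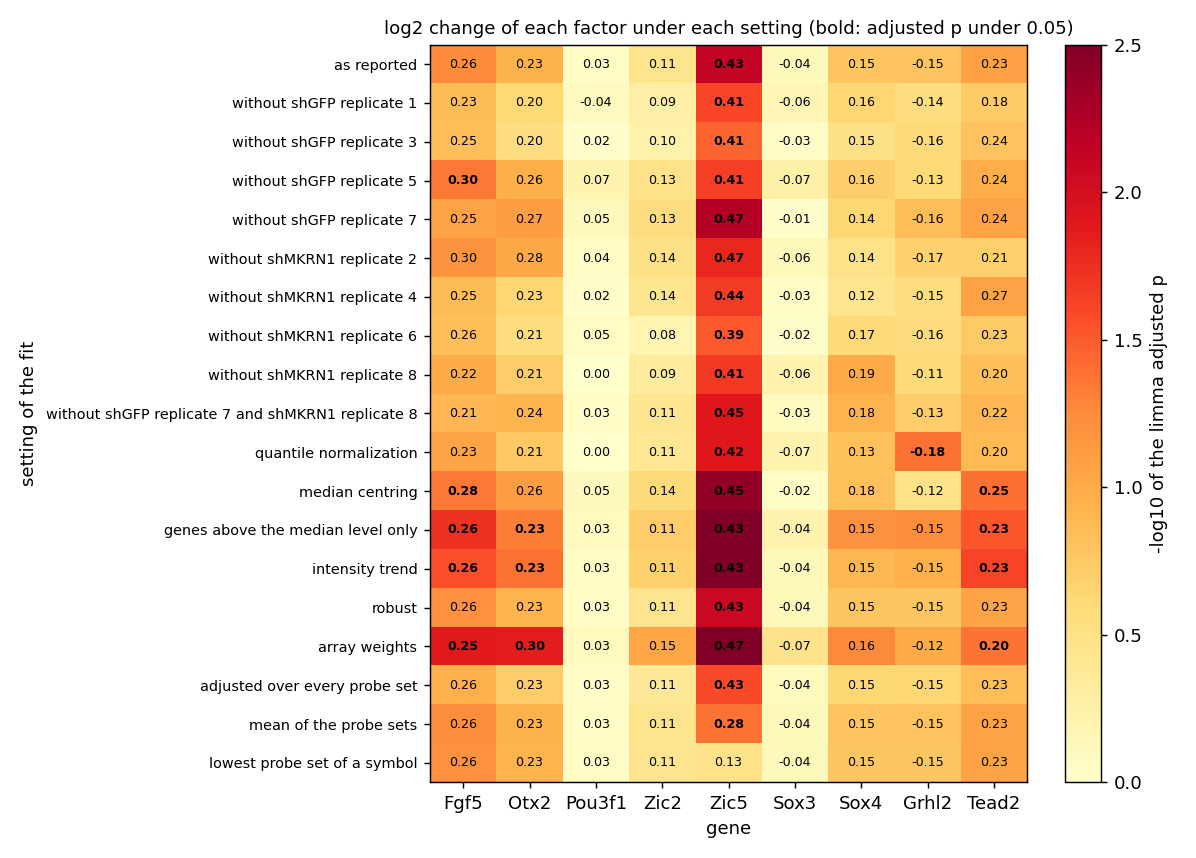
Rows are the 19 fits and columns the 9 factors; each cell prints the log2 change (shMKRN1 minus shGFP), in bold where the adjusted p is under 0.05, and darker colour stands for a smaller adjusted p (scale in -log10). Zic5 is bold in every row but the last, which uses the lower probe set of each gene, and Fgf5 and Tead2 in 5 and 4 rows.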

How the data were processed

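The deposited table holds log2 values for 34760 probe sets of a mouse Affymetrix gene array, per the submitters' processing notes from RMA (its version: not given in the sources used here). The method subtracts background, equalises the arrays and summarises probes, so a change shared by most genes is not visible and changes of dim genes are understated. Of the probe sets, 21640 had 1 symbol, 1321 several and 11799 none in the platform annotation. The highest mean row per symbol gave 19937 genes. Differences were fitted over all genes with limma 3.58.1 in R 4.3.3 (lmFit, eBayes, 6 residual and 4 prior degrees of freedom), without filter or covariate, with two-sided p-values adjusted by Benjamini-Hochberg at 0.05. The script was tested on simulated data. Single differences used exact permutation of the arrays. All 5 paralog pairs tested are given; a further planned pair is not reported here. Gene lists were fixed, and lists were described by counts and medians. The members and lists were chosen with earlier results of these data known. Named genes are the members, their paralogs, up to 4 called genes of each list, and the genes nearest to or most like a called member. RefSeq tables of GRCm38.p6 gave positions, synonyms and promoters. The number of arrays limits the precision.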

Additional observations from a re-analysis of the deposited data

Results flagged for a closer look

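Of 20 groups of 4 values (10 probe sets of the members, in each group of arrays), 2 held a value whose gap to its neighbour, as a share of the whole range, exceeded Dixon's critical value at 95% confidence; about 5% of groups do so by chance. For Zic5 on probe set 10376241, shGFP 7 (10.95) lay above the other shGFP arrays, with a gap of 0.96 of the range; without it the change was 0.47 (limma adjusted p = 0.00604). For Tead2, shGFP 1 (10.40) lay below the other shGFP arrays, with a gap of 0.933 of the range; without it the change was 0.18 (limma adjusted p = 0.182, against 0.0838 with all arrays).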

How the results depend on the processing

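No paired analysis was possible because the groups share no replicate numbers and no label ties an array of one group to an array of the other. Counts of genes past the threshold (896) were 1595 with genes above the median level only, 1548 with an intensity trend, 2757 with array weights and 521 over every probe set, and 309 to 917 with 1 array, or both shGFP 7 and shMKRN1 8, left out. The lowest were 309 (shMKRN1 6 left out), 324 (shGFP 3), 353 (shMKRN1 2), 387 (shMKRN1 4) and 505 (shGFP 1). Of the 9 factors (1 past the threshold), 2 passed after quantile normalization, 3 with median centring, 4 with the median filter, the trend or array weights, 0 with the lower probe set of each gene (chosen after seeing the data), and 1 to 2 without 1 array. Genes of FGF and ERK signalling numbered 3 with quantile normalization or the median filter (2 higher, 1 lower), 4 with the trend or array weights (3 higher, 1 lower) and 0 to 2 without 1 array. Naive genes numbered 8 with the trend (6 higher, 2 lower) or array weights (5 higher, 3 lower), 6 with the median filter (4 higher, 2 lower), 1 over every probe set and 0 to 4 without 1 array. Other formative genes numbered 7 with array weights (5 higher, 2 lower), 6 with the median filter (4 higher, 2 lower) or the trend (5 higher, 1 lower), 4 after quantile normalization (3 higher, 1 lower) and 2 to 4 without 1 array. Hippo genes numbered 2 with array weights, both lower, paralogs 1 with the trend, and genes of all marker lists together (8) 4 over every probe set and 4 to 9 without 1 array. The sign turned for Pou3f1 without shGFP 1 (-0.04; range -0.04 to 0.07) and for Sox3 minus Sox2 without shGFP 7 (0.03), shMKRN1 4 (0.01) or shMKRN1 6 (0.03; range -0.05 to 0.03). Without 1 array, the shift ranged from 0.02 to 0.13 for Tead2 minus Tead1, 0.06 to 0.18 for Sox4 minus Sox11, 0.08 to 0.18 for Fgf5 minus Fgf4 and 0.28 to 0.33 for Zic5 minus Zic2. The cause of these shifts was not tested. Mkrn1 kept its direction and call under every setting run (-0.63 to -0.57 without 1 array). Detection calls are not part of the table, so low levels were judged against receptor genes only.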
